A study of Mus musculus with 12 samples.

Results

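The genes described here are 9 transcripts of renal magnesium transport and of the nephron's claudins: Trpm6, Trpm7, Cnnm2, Cldn2, Cldn8, Cldn10, Cldn14, Cldn16 and Cldn19. They were chosen by name, as magnesium channels and claudins of the tubule, and all 9 were measured among 19938 genes. Kidney RNA of female mice was hybridised to 12 whole-transcript arrays in 3 groups of 4. KL null mice, which lack klotho, were labelled as strain 129/SvEv/C57BL/6 and were injected with 100 µl saline vehicle. WT mice, labelled as C57BL/6, received either recombinant FGF23 at 500 ng per g body weight or the same saline vehicle. All injections were intraperitoneal, the mice were killed 1 hour later, and all groups had been kept on standard diet for 5 to 8 weeks. The treatment protocol calls the WT mice littermates, but strain label and genotype go together, so they cannot be told apart in any comparison with KL null mice. The labels do not say whether each array came from its own mouse, so p-values measure the spread between these arrays. Klotho is the co-receptor that FGF23 needs in the kidney, and the series compared a short pulse of the hormone with the lasting loss of its co-receptor.

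Magnesium leaves the tubule fluid by 2 routes. In the thick ascending limb it passes between cells, through a tight junction pore that claudin-16 and claudin-19 form together, while claudin-10 gives the same segment a sodium-selective pore and claudin-14 is known to block the claudin-16 and claudin-19 pore. In the distal convoluted tubule it enters cells through the apical channel TRPM6, which can assemble with its widely expressed relative TRPM7, and the basolateral membrane protein CNNM2 is needed for normal magnesium reabsorption. Claudin-2 lets cations and water pass between proximal tubule cells, and claudin-8 tightens the junctions of the collecting duct and late distal tubule.

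Values are log2 RMA signals, on which a difference of 1 is a doubling, and the 9 genes were not compared in level with each other. Kl, the deleted gene, averaged 9.72 ± 0.07 in KL null and 10.61 ± 0.13 in WT vehicle kidneys (SD, n = 4 each, log2 difference -0.89, limma adjusted p = 1.75e-05). The exons that its probe set covers are not known here, so the remaining signal does not measure intact transcript. The standard deviation of the log2 values ran between 2.166 and 2.281 over the arrays, and it was lowest on WT FGF23 replicates 1 and 2 (2.166 and 2.167), followed by KL null replicates 1 and 2 (2.195 and 2.217). Values without these arrays are given beside some of the differences that they moved. Of 9 thick ascending limb markers measured, 0 passed the test in KL null against WT vehicle, and their mean log2 level was 9.75 to 9.86 on KL null arrays and 9.81 to 9.90 on WT vehicle arrays. Of 10 distal convoluted tubule markers 2 rose, Trpv5 and Tmem52b, and 1 fell, Slc12a3, with a mean level of 9.46 to 9.79 in KL null and 9.42 to 9.69 in WT vehicle. Of 10 proximal tubule markers 6 fell and 0 rose, and their mean level was 11.59 to 11.77 in KL null and 11.89 to 12.10 in WT vehicle. Of 10 immune cell markers 4 rose and 1 fell, with a mean level of 6.85 to 7.37 in KL null and 6.50 to 6.98 in WT vehicle. The part of these shifts in the results below was not tested. In whole kidney RNA, fewer cells of a type and less RNA per cell cannot be told apart.

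KL null against WT vehicle asks how the magnesium pathway stands without klotho. Trpm6 and Cldn16, the apical channel and a subunit of the paracellular magnesium pore, rose 1.41-fold and 1.34-fold. Cnnm2, of the basolateral side, fell 1.27-fold. The other 6 genes did not pass the test. Thus 3 of 9 were called at an adjusted p below 0.05, against 8.01% of all genes tested. Of them 2 were higher, beside 3.58% of all genes, and 1 was lower, beside 4.44%. At an unadjusted p below 0.05 there were 4 of 9, beside 21.3%. The KL null and vehicle arrays did not overlap for 4 genes, with 2 above and 2 below, where 13.8% of all genes did not (6.35% above and 7.44% below). The median log2 difference of the 9 was 0.14, beside 0.02 over all genes.

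The promoters of the 3 called genes are shown because these genes moved in the same comparison, 2 up and 1 down. Each sequence is the 250 bases before the RefSeq start (build GRCm38.p6), read 5′ to 3′, and capitals mark CG dinucleotides.
Trpm6, chr19:18749480-18749729, plus strand: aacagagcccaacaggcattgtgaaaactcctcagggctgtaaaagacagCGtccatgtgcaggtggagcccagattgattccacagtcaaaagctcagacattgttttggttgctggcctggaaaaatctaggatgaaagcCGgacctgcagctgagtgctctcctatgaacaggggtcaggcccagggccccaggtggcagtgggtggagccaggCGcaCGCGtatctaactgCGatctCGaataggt
Cldn16, chr16:26462885-26463134, plus strand: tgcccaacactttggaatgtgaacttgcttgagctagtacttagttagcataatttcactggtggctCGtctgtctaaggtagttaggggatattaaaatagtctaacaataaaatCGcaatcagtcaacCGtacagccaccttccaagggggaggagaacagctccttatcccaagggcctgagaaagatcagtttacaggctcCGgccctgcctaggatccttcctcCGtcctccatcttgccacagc
Cnnm2, chr19:46761359-46761608, plus strand: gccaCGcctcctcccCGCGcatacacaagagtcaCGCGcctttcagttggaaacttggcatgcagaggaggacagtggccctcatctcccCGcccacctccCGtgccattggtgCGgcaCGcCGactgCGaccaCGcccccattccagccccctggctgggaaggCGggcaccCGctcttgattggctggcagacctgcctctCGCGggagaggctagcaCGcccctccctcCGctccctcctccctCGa

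The Trpm6 window held 7 CG dinucleotides and the Cldn16 window 5, against a median of 6 over 32851 RefSeq promoters. The Cnnm2 window held 19, more than 80.3% of all promoters. RefSeq gave 12 such windows for 8 of the 9 genes, with Cldn8 not among them. Both strands were searched for a nuclear receptor half-site (AGGTCA), an E-box (CACGTG), an AP-1 site (TGANTCA) and an EGR site (GCGNGGGCG), a choice made with the sequences in view. The windows of the 3 called genes held none of them. Over all promoters 6.75% hold the AP-1 site and 4.7% the EGR site. With shares this low, the lack of a match in 3 windows says little. AGGTCA stood once in each of the 3 Cldn14 windows, 124, 213 and 192 bases before the start, and 14% of all promoters hold it. CACGTG stood once in the Trpm7 window, 25 bases before the start (6.02% of all promoters). A match of letters is a description of the window and not evidence of binding.

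Trpm6, the apical entry channel of the distal convoluted tubule, had log2 signals of 8.00, 7.93, 7.86 and 7.97 on the KL null arrays and of 7.42, 7.31, 7.35 and 7.68 on the WT vehicle arrays. All KL null arrays lay above all WT vehicle arrays, and above the WT FGF23 arrays too. The means were 7.94 ± 0.06 in KL null and 7.44 ± 0.17 in WT vehicle (SD, n = 4 each), a log2 difference of 0.50 (SE 0.103, limma adjusted p = 0.00836). The 95% interval of the fold was 1.21 to 1.65. Without KL null replicates 1 and 2 the difference was 0.47 and no longer passed (limma adjusted p = 0.0556), while it passed in all 12 fits that left out a single array.

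Cldn16, a pore-forming claudin of the thick ascending limb, had 8.48, 8.32, 8.64 and 8.60 on the KL null arrays and 8.14, 8.09, 8.04 and 8.10 on the WT vehicle arrays. The groups did not overlap, and the vehicle arrays lay close together. The means of 8.51 ± 0.14 in KL null and 8.09 ± 0.04 in WT vehicle differed by 0.42 (SE 0.102, limma adjusted p = 0.0211), with a fold interval of 1.15 to 1.55. The call was lost without WT vehicle replicate 3 (0.0679), KL null replicate 3 (0.077) or KL null replicate 4 (0.0569), and with arrays centred on their medians (difference 0.36, 0.0654). It was kept without KL null replicates 1 and 2 (difference 0.53, 0.0216).

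Against all 8 wild-type arrays together, the KL null arrays lay wholly above for Trpm6 and Cldn16 and overlapped for the other 7 genes. Trpm6 was at 7.86 to 8.00 in KL null and 7.11 to 7.68 in wild type, and Cldn16 at 8.32 to 8.64 in KL null and 7.67 to 8.14 in wild type. Over all genes 3.78% lay above in this way.

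Cnnm2, which is needed for magnesium reabsorption across the basolateral membrane, had 7.94, 8.11, 7.92 and 8.03 on the KL null arrays and 8.45, 8.17, 8.53 and 8.22 on the WT vehicle arrays. The groups did not overlap, but KL null replicate 2 and WT vehicle replicate 2 were only slightly apart. The means of 8.00 ± 0.09 in KL null and 8.34 ± 0.17 in WT vehicle gave a log2 difference of -0.34 (SE 0.0985, limma adjusted p = 0.0456). This is the least secure of the 3 calls: leaving out any KL null array, WT vehicle replicate 1 or 3, or WT FGF23 replicate 2, 3 or 4 ended it, and it held in 3 of those 12 fits. Over all alternatives the difference lay between -0.40 and -0.28, with an adjusted p of 0.0106 to 0.151. Without KL null replicates 1 and 2 together it was -0.37 and did not pass (limma adjusted p = 0.108).

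Cldn10 had 10.86, 10.79, 10.80 and 10.77 in KL null kidneys and 11.13, 10.96, 11.15 and 11.20 in WT vehicle kidneys. The groups did not overlap, yet the difference of -0.31 (SE 0.098) missed the threshold (limma adjusted p = 0.0708). A further probe set of the gene had 10.47 ± 0.06 in KL null and 10.79 ± 0.07 in WT vehicle, and also differed by -0.31. The isoforms of Cldn10 that the probe sets read are not known here, so these values cannot be assigned to the sodium-selective pore. The call was gained in 5 of 23 alternatives, and the adjusted p lay between 0.023 and 0.169.

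Cldn19, which joins claudin-16 in the magnesium pore, was at 8.53 to 8.68 in KL null and 8.54 to 8.86 in WT vehicle kidneys, with a log2 difference of -0.10 and a 95% interval of -0.30 to 0.11. Cldn14, the inhibitor of that pore, was at 5.31 to 5.94 in KL null and 5.29 to 5.63 in WT vehicle (difference 0.18, interval -0.13 to 0.50). Its difference was -0.05 without KL null replicates 1 and 2. The Cldn14 signal was low, with a mean of 5.62 over the arrays, beside medians over all probe sets of 6.15 to 6.29 per array. The groups overlapped for Cldn19 and Cldn14. Trpm7, the partner channel of TRPM6, was at 9.86 to 10.13 in KL null and 9.74 to 9.97 in WT vehicle (difference 0.18, interval -0.02 to 0.39).

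Cldn2 of the proximal tubule was at 10.37 to 10.53 in KL null and 10.34 to 10.46 in WT vehicle kidneys (difference 0.04, interval -0.12 to 0.19), beside the 6 proximal tubule markers that fell. Cldn8 of the collecting duct was at 9.27 to 9.57 in KL null and 9.10 to 9.31 in WT vehicle (difference 0.14, interval -0.09 to 0.37). These 2 genes also overlapped between the groups. A miss of the threshold does not show that their levels were the same, and the intervals give the sizes the arrays allow.

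**Figure D1:**
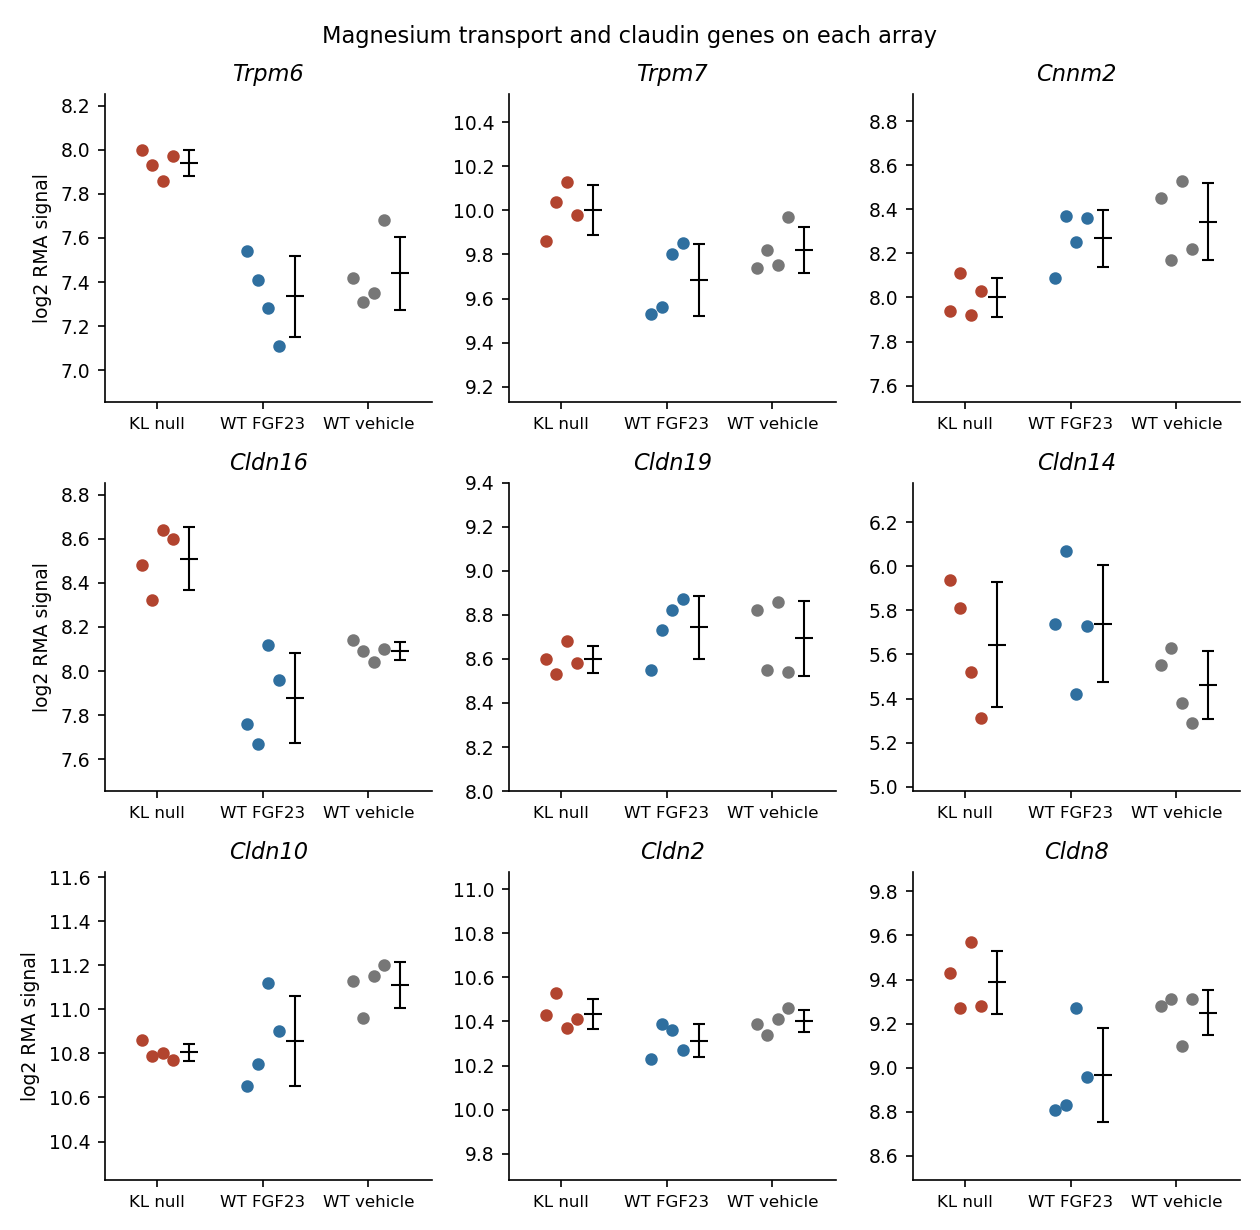
Log2 RMA signal of the 9 genes on each array, with 4 points per group in the order of replicates 1 to 4 and, beside them, the mean and SD. All panels span the same 1.4 log2 units. For Trpm6 and Cldn16 the KL null points sit above every wild-type point.

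Pairs of these genes were compared within each array, as the log2 ratio of their signals. Cldn16 with Cldn19 and Trpm6 with Trpm7 are partners in a pore or channel, and Cldn16 with Cldn10 are not. The test was an exact two-sided permutation test over 4 against 4 arrays (smallest p possible 0.0286). The pairs were chosen with their values known, and 6 tests were made. Cldn16 relative to Cldn19 was higher by 0.51 in KL null than in WT vehicle kidneys, at -0.21 to 0.02 in KL null and -0.82 to -0.44 in WT vehicle (exact permutation p = 0.0286, Benjamini-Hochberg 0.0572). Cldn16 relative to Cldn10 was higher by 0.72, at -2.47 to -2.16 in KL null and -3.11 to -2.87 in WT vehicle (exact permutation p = 0.0286, Benjamini-Hochberg 0.0572). In both pairs the KL null and vehicle arrays were fully apart, and the adjusted value missed 0.05 at the smallest p this design allows. For Cldn16 and Cldn10 this separation was fixed in advance. KL null lay wholly above vehicle for Cldn16 and wholly below for Cldn10, so the p of their ratio adds no support. The Benjamini-Hochberg values count this pair among the 6 tests. Its tie at the smallest p makes those of Cldn16 with Cldn19 and of Trpm6 with Trpm7 lower than they would be without it. The other ratios restate in part the called differences of Cldn16 and Trpm6. Trpm6 relative to Trpm7 was higher by 0.32, at -2.27 to -1.86 in KL null and -2.51 to -2.29 in WT vehicle (exact permutation p = 0.0286, Benjamini-Hochberg 0.0572). With a further quantile normalization its difference was 0.28 (unadjusted exact permutation p = 0.0571). Without each of the 4 WT vehicle arrays in turn this p was 0.0571 too, though the groups stayed apart with differences of 0.27 to 0.35. With 1 array fewer in a group, p depends on whether the opposite split counts as equally far. That rise therefore does not show a weaker difference. The other 2 pairs kept 0.0286 in every alternative run for them, which does not rank the pairs. After FGF23 the same ratios differed from vehicle by -0.27, 0.04 and 0.03 (exact permutation p = 0.114, 0.6 and 0.914).

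WT FGF23 against WT vehicle asks what 1 hour of the hormone does to the same genes. Of the 9 genes 0 passed the limma test, against 17 of 19938 genes in all (0.0853%). At an unadjusted p below 0.05 there were 2 of 9, Cldn8 and Cldn10, beside 15.4% of all genes. The FGF23 and vehicle arrays overlapped for all 9, where 7.01% of all genes did not overlap. The log2 differences lay between -0.28 and 0.28, and the 95% intervals reached from -0.51 to 0.59, so that changes larger than 1.51-fold in either direction lay outside them all. The median was -0.11 over the 9 genes and 0.04 over all genes. Of the 9 genes 7 were negative, while 58.7% of all genes were positive. On the same arrays Dusp6, a phosphatase that FGF signalling induces, averaged 10.11 ± 0.12 after FGF23 and 8.83 ± 0.11 with vehicle (SD, n = 4 each, limma adjusted p = 1.6e-06).

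Cldn8 had log2 signals of 8.81, 8.83, 9.27 and 8.96 after FGF23 and of 9.28, 9.31, 9.10 and 9.31 with vehicle. The groups overlapped through WT FGF23 replicate 3. The difference was -0.28 (SE 0.108, limma adjusted p = 0.276), and -0.14 without WT FGF23 replicates 1 and 2.

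Cldn10 had 10.65, 10.75, 11.12 and 10.90 after FGF23 and 11.13, 10.96, 11.15 and 11.20 with vehicle. Here too WT FGF23 replicate 3 lay among the vehicle arrays. The difference was -0.26 (SE 0.098, limma adjusted p = 0.276) and -0.10 without WT FGF23 replicates 1 and 2. Cldn16 had 7.76, 7.67, 8.12 and 7.96 after FGF23, and its difference of -0.22 became -0.05 without the same arrays. These 2 replicates, the arrays of lowest spread, lay below the other FGF23 arrays for 5 of the 9 genes (Trpm7, Cldn8, Cldn10, Cldn16 and Cldn19) and above them for 2 (Trpm6 and Cldn14). The part of array spread in the differences was not tested beyond those values and the fit with spread as a covariate, in which Cldn8 differed by -0.19, Cldn10 by -0.13 and Cldn16 by -0.04.

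Cldn14 was at 5.42 to 6.07 after FGF23 and 5.29 to 5.63 with vehicle. Its difference of 0.28 did not pass (SE 0.147, limma adjusted p = 0.371). It was 0.11 without WT FGF23 replicates 1 and 2, 0.17 without replicate 2 alone and -0.03 with array spread as a covariate. Trpm6 differed by -0.11 (limma adjusted p = 0.619), and by -0.24 without WT FGF23 replicates 1 and 2. Trpm7 differed by -0.13 (0.488), Cnnm2 by -0.07 (0.716), Cldn2 by -0.09 (0.559) and Cldn19 by 0.05 (0.814), with limma adjusted p-values in parentheses. Without those arrays Trpm7 was at 0, Cnnm2 at -0.04, Cldn2 at -0.08 and Cldn19 at 0.15.

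**Figure D2:**
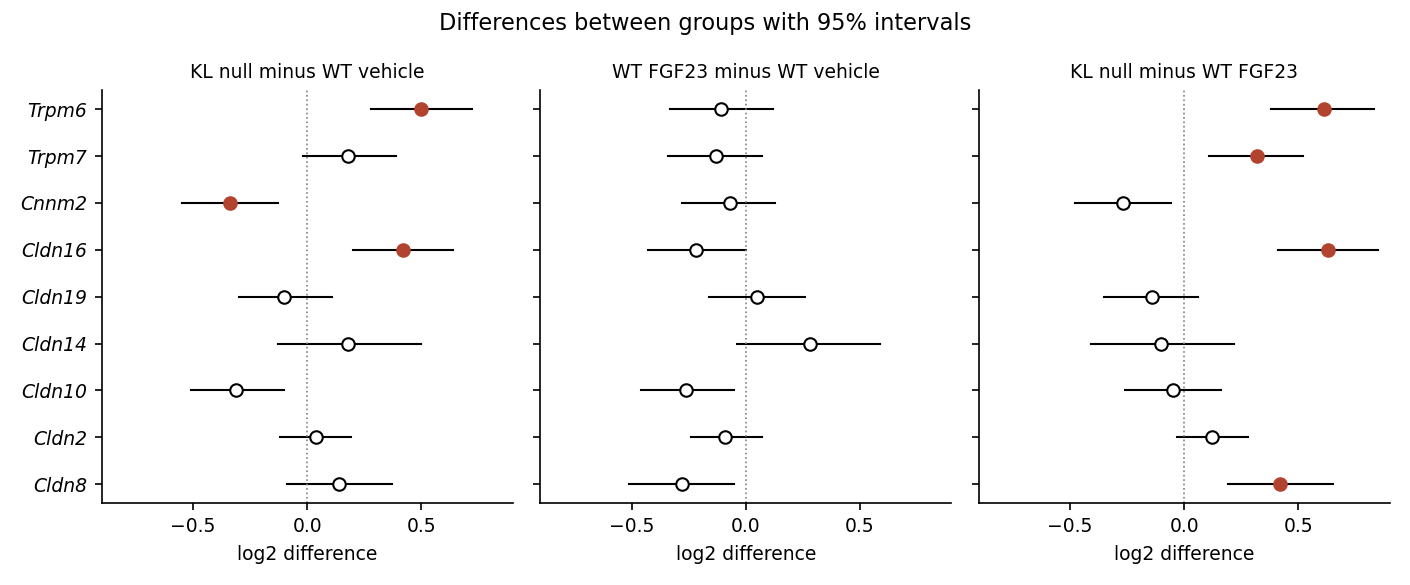
Log2 difference between groups for each gene (points) with its 95% interval (lines), in 3 panels for KL null minus WT vehicle, WT FGF23 minus WT vehicle and KL null minus WT FGF23. Filled points passed at an adjusted p below 0.05. Trpm6 and Cldn16 are filled in both panels with KL null, and no point is filled in the middle panel.

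KL null against WT FGF23 sets the same KL null arrays beside the other wild-type group. It shares arrays with both comparisons above and is given as values side by side. Trpm6, Cldn16, Trpm7 and Cldn8 were higher in KL null kidneys and 0 genes were lower, so 4 of 9 were called, against 12% of all genes (6.72% higher and 5.25% lower). The groups did not overlap for 3 of them, with KL null above, beside 7.95% of all genes. Trpm6 differed by 0.61 (SE 0.103, limma adjusted p = 0.00223) and Cldn16 by 0.63 (SE 0.102, limma adjusted p = 0.00154), and both calls held in all 23 alternatives. Cnnm2 differed by -0.27 and did not pass (limma adjusted p = 0.0916), and it passed with a further quantile normalization (0.048) and with array quality weights (0.0401). Its groups overlapped, with WT FGF23 replicate 1 at 8.09 and KL null replicate 2 at 8.11.

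Trpm7 had 9.86, 10.04, 10.13 and 9.98 on the KL null arrays and 9.53, 9.56, 9.80 and 9.85 on the WT FGF23 arrays. The groups were apart by 0.01 between their nearest arrays. The difference was 0.32 (SE 0.0963, limma adjusted p = 0.0439), and 0.18 (0.406) without WT FGF23 replicates 1 and 2. Cldn8 had 9.43, 9.27, 9.57 and 9.28 on the KL null arrays, and its difference of 0.42 (SE 0.108, limma adjusted p = 0.0212) was 0.27 (0.24) without those 2 arrays. Without WT FGF23 replicate 1 or 2 singly, Trpm7 was at 0.12 and 0.13 in adjusted p and Cldn8 at 0.0613 and 0.0705. Both calls were also lost without KL null replicate 3 (0.138 and 0.0793). Cldn8 lost its call without WT FGF23 replicate 4 (0.0504). Trpm7 lost it without KL null replicate 2 (0.0935) or 4 (0.0766) and without WT vehicle replicates 1, 2 or 3 (0.0549, 0.0566 and 0.0549). With array spread as a covariate both calls were lost (0.108 for Trpm7 and 0.0516 for Cldn8). Trpm7 also lost its call with arrays centred on their medians (0.0582) and with only the 2 groups fitted (0.077). Over the 23 alternatives the Trpm7 call held in 10 and the Cldn8 call in 17.

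Over the 3 groups, Trpm6, Trpm7, Cldn2, Cldn8 and Cldn16 shared an order of means, with KL null highest, WT vehicle next and WT FGF23 lowest. That order was found in 5 of the 9 genes and in 18.1% of all genes. For Trpm6 and Cldn16 the step between KL null and WT vehicle passed the test, and the step between the wild-type groups did not. For Trpm7, Cldn2 and Cldn8 neither neighbouring step did. The order also depended on processing and arrays. KL null minus WT vehicle was -0.02 for Cldn2 with arrays centred on their medians. Without WT FGF23 replicates 1 and 2, WT FGF23 minus WT vehicle was 0 for Trpm7 and -0.05 for Cldn16. Cnnm2 and Cldn10 had WT vehicle highest and KL null lowest (14.3% of all genes). For Cnnm2 the 2 wild-type groups did not differ beyond their spread, and for Cldn10 no step passed. Cldn14 and Cldn19 had WT FGF23 highest, and no step of either passed.

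**Figure D3:**
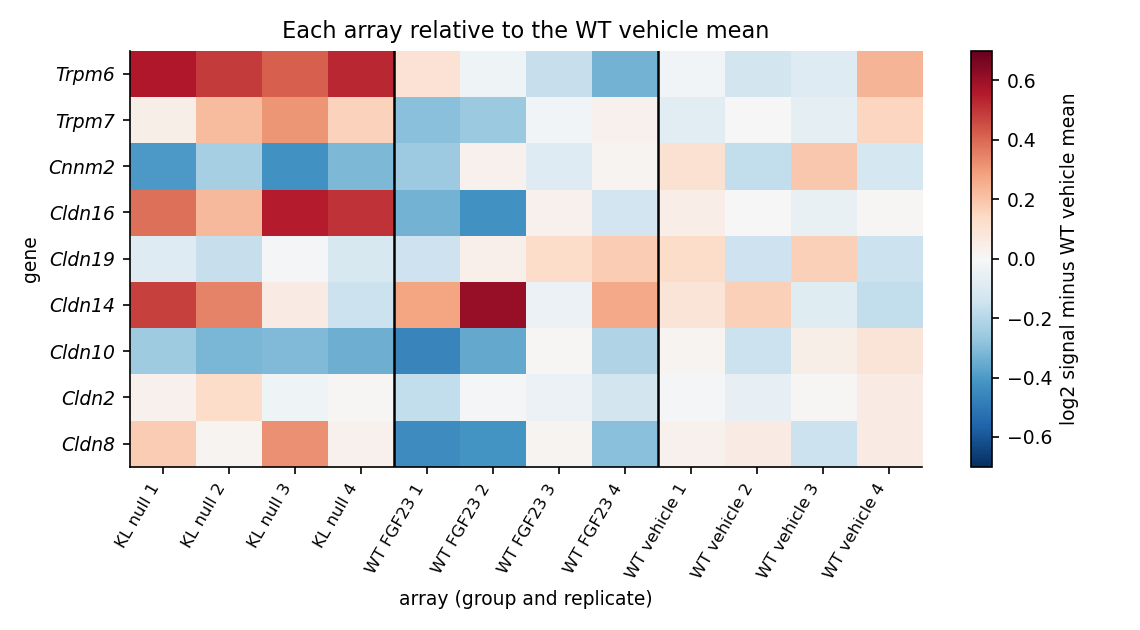
Log2 signal of the 9 genes (rows) on each of the 12 arrays (columns, grouped as KL null, WT FGF23 and WT vehicle), less the WT vehicle mean of the gene. Red is higher and blue lower. The Trpm6 and Cldn16 rows are red on all KL null arrays, and Cldn8, Cldn10 and Cldn16 have their lowest values on WT FGF23 replicates 1 and 2.

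How far the genes varied among themselves differed. The SD within groups was largest for Cldn14 (0.24) and smallest for Cldn2 (0.07). The range over the 12 arrays was 0.97 for Cldn16, 0.89 for Trpm6 and 0.30 for Cldn2. Among the 36 pairs of the 9 genes the highest Pearson correlation over the 12 arrays was between Cldn8 and Cldn16 (r = 0.87), and it was 0.79 for deviations from group means. Cldn16 and Cldn19, which share a pore, had r = -0.26 over the arrays and 0.42 for deviations. These are descriptions over arrays that share groups and array spread.

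Each gene was also set beside the genes whose values over the 12 arrays were most like its own. Closest to Trpm6 were the efflux transporter gene Abcb1b (r = 0.97) and the cytochrome gene Cyp3a13 (0.962). Closest to Cldn16 were Cyp2j6 (0.981), another cytochrome gene, and the serpin gene Serpinb6b (0.973). Cnnm2 was most like the proton pump subunit gene Atp6v0a2 (0.969) and Zbed3 (0.963), and Trpm7 most like Chd6 (0.963) and Fcho2 (0.959). For Cldn8 these were Zfp763 (0.986) and Guf1 (0.958), for Cldn10 the amino acid transport partner Cltrn (0.941) and Gpr137b-ps (0.934), and for Cldn2 Slc38a6 (0.909) and Ube4a (0.877). Cldn14 was most like Wnt16 (0.948) and Dmrta2 (0.936), and Cldn19 most like Rffl (0.935) and Zfp36l1 (0.925). The values are the highest of all named genes and carry no test.

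Of 26 other genes of magnesium handling measured, 1 rose, 1 fell and 24 did not pass in KL null against WT vehicle kidneys. That share is near the 8.01% called over all genes. Of the 26 genes 19 were negative, while 56.2% of all genes were positive, and the median log2 difference of the 26 was -0.10. Cnnm4, a CNNM2 relative that extrudes magnesium in the intestine, averaged 7.23 ± 0.24 in KL null and 8.00 ± 0.19 in WT vehicle kidneys (SD, n = 4 each), 1.70-fold lower (limma adjusted p = 0.00174). Cnnm1, another relative, averaged 7.35 ± 0.12 in KL null and 6.96 ± 0.21 in WT vehicle and rose 1.31-fold (limma adjusted p = 0.0342). Cnnm1 lost its call in 7 of 23 alternatives, with an adjusted p of up to 0.101, and Cnnm4 in none of them. The remaining relative, Cnnm3, differed by -0.03 (adjusted p = 0.91). After FGF23 0 of the 26 passed, and the smallest p belonged to Pcbd1 (difference -0.20, limma adjusted p = 0.253).

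Of 19 claudins and claudin-domain genes outside the 9, 2 rose in KL null kidneys, 0 fell and 17 did not pass, also a share near that over all genes (8.01%). Cldn1, a barrier claudin of the glomerular parietal epithelium, averaged 8.90 ± 0.09 in KL null and 8.26 ± 0.13 in WT vehicle kidneys, a 1.57-fold increase (limma adjusted p = 0.00349). Cldn15, which forms cation pores in the intestine, averaged 7.15 ± 0.25 in KL null and 6.69 ± 0.15 in WT vehicle (1.38-fold, limma adjusted p = 0.0311). Cldn1 kept its call in all 23 alternatives and Cldn15 in 15. After FGF23 0 of the 19 passed, and Cldn1 had the smallest p (difference -0.32, limma adjusted p = 0.263).

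Of 25 tight junction partners, 1 rose, 2 fell and 22 did not pass in KL null kidneys, beside 8.01% called over all genes. Cgnl1, the junction scaffold paracingulin, fell to 10.21 ± 0.12 in KL null, against 10.61 ± 0.07 in WT vehicle kidneys (limma adjusted p = 0.00848). Prkcz, an atypical protein kinase C of cell polarity, was at 9.69 ± 0.12 in KL null and 10.06 ± 0.02 in WT vehicle and fell too (limma adjusted p = 0.0112). Ocln, the junction protein occludin, was at 7.82 ± 0.13 in KL null and 7.46 ± 0.18 in WT vehicle and rose (limma adjusted p = 0.0402), a call lost in 11 of 23 alternatives. After FGF23 0 of the 25 passed, and Prkcz had the smallest p (difference -0.21, limma adjusted p = 0.276).

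**Figure D4:**
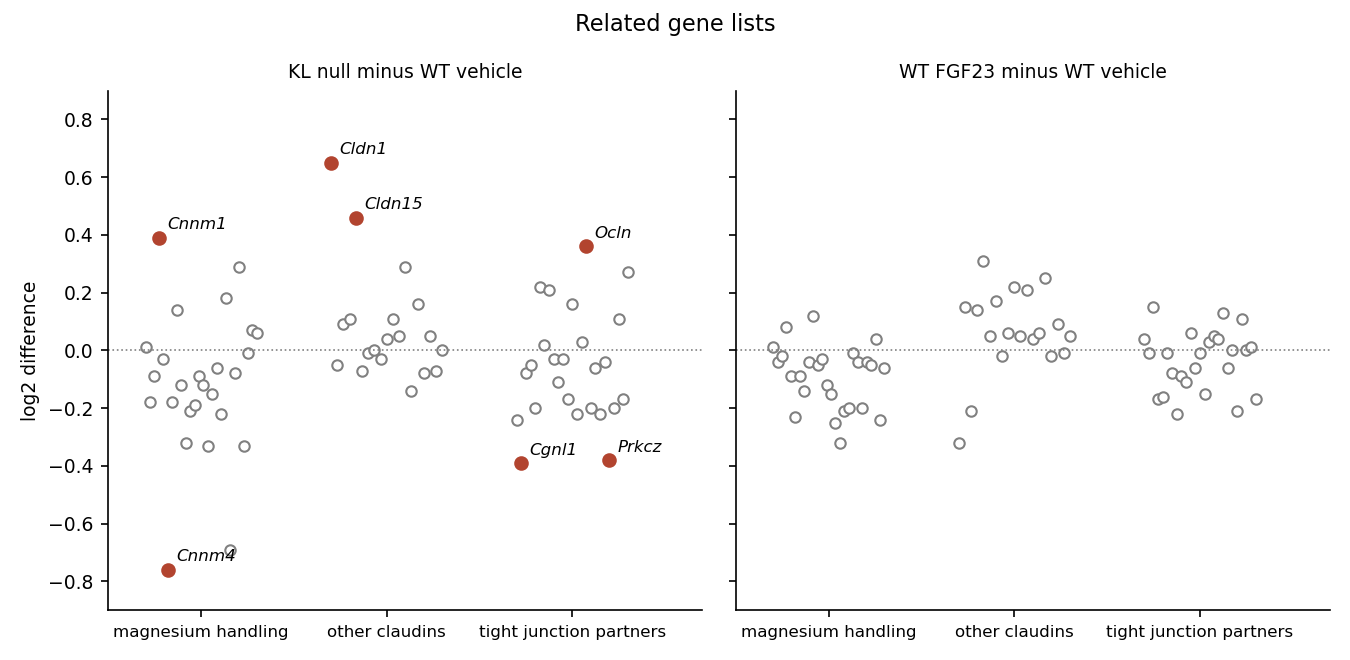
Log2 difference of each measured gene of 3 related lists (points), for KL null minus WT vehicle (left) and WT FGF23 minus WT vehicle (right). Filled and named points passed at an adjusted p below 0.05. There are 7 such genes on the left and 0 on the right.

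Segment markers place these values. The smallest p-values in KL null against WT vehicle belonged to Ptger3 in the thick ascending limb (difference -0.27, limma adjusted p = 0.12) and to Slc4a1 in the collecting duct (-0.23, 0.203), and neither passed. In the distal convoluted tubule the calcium channel gene Trpv5 rose by 0.97 (limma adjusted p = 1.05e-05) and Tmem52b by 0.29 (0.0439), a call that Tmem52b lost in 12 of 23 alternatives. The sodium-chloride cotransporter gene Slc12a3 of the same segment, named after its value was seen, differed by -0.32 (limma adjusted p = 0.0469). Lrp2 of the proximal tubule fell (-0.50, limma adjusted p = 0.00175), as did Slc13a3 (-0.72, 0.0025). Of 5 podocyte markers 1 fell and 0 rose. It was Podxl (-0.37, limma adjusted p = 0.027), whose call was lost in 6 of 23 alternatives. Of 6 thin limb markers Fst rose (0.62, limma adjusted p = 0.0118) and Sptssb fell (-0.69, 0.0407), the second call being lost in 8 of 23 alternatives. Of 10 immune cell markers 4 rose and 1 fell, with differences of -0.55 to 1.71. Smallest in p were Lyz2 (1.71, limma adjusted p = 0.0011) and Itgam (0.88, 0.00159) of myeloid cells, which rose. Of 8 adrenal gland markers 1 rose and 0 fell. The riser was Hsd3b1 (0.60, limma adjusted p = 0.0124), at 3.57 ± 0.26 in KL null and 2.96 ± 0.16 in WT vehicle. Of 5 adipocyte markers 0 passed, with Fabp4 smallest in p (-0.26, limma adjusted p = 0.323).

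After FGF23 0 markers of the 9 lists passed. The smallest p-values were those of Bsnd (-0.17, limma adjusted p = 0.464), Tmem52b (-0.28, 0.241), Fbp1 (-0.15, 0.316), Atp6v0d2 (-0.27, 0.283) and Sptssb (-0.54, 0.263) among tubule markers. In the other lists they were Lyz2 (-0.60, limma adjusted p = 0.305), Cyp11b1 (0.50, 0.245), Plin1 (0.39, 0.287) and Tcf21 (-0.41, 0.327).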

How the data were processed

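Total kidney RNA was labelled by the whole-transcript sense target protocol and hybridised to 12 arrays. The values the authors deposited are on the log2 scale, with 1 signal for each probe set, and are RMA values of Partek 6.2 (per the submitters' processing notes); background and probe-level settings are not given in the sources used here. Of 28853 probe sets 21789 had 1 gene symbol in the platform annotation, 1621 had several and 5443 none, and 21698 matched the RefSeq gene table (GRCm38.p6) by Entrez identifier. A gene was its 1-symbol probe set with the highest mean, which gave 19938 genes; the 9 genes had 10 such probe sets, 2 of them for Cldn10, and a probe set shared by Dzip1 and Cldn10 was left out.

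The 3 groups entered limma (version 3.58.1, under R 4.3.3) with lmFit and eBayes and two-sided tests, in 1 fit of their means over 12 arrays with 9 residual degrees of freedom. Calls are Benjamini-Hochberg adjusted p-values below 0.05 over all genes. The fit was run on simulated data with independent noise for each gene. Such data lack the differences in array spread seen here, so that run adds no support to the calls. The named genes are the 9, Kl, for each related list up to 5 called genes of smallest p (2 for marker lists, or the smallest p where none passed), and the 2 genes most correlated with each of the 9. Names of unnamed loci, predicted genes, RIKEN clones and small RNAs were left out there. Dusp6 was added after its value was seen. The members and lists were chosen with earlier results of these data known. Some genes of the related lists were not analysed here, counts are over those measured, and 1 further promoter motif that was searched is not reported here. Alternatives covered scaling, array spread, weights, moderation, groups fitted, the replicate number as a block, probe sets, dim genes and arrays left out. Figures were made with Python 3.11.15 and matplotlib 3.10.9. The number of arrays limits the precision.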

Additional observations from a re-analysis of the deposited data

Results flagged for a closer look

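Within groups of 4 arrays, a value was marked when its gap to the nearest other array made up more of the group's range than Dixon's critical value allows at 95%. Of 111 groups over 37 genes 6 were marked, where chance marks about 1 in 20. Among the 9 magnesium and claudin genes 1 of 27 groups was marked: Cldn8 on WT vehicle replicate 3, at 9.10 against 9.28 to 9.31 on the other vehicle arrays. In the related lists, Ocln on KL null replicate 2 stood at 7.62 and Fbp1 on KL null replicate 2 at 12.47. Podxl was low on KL null replicate 1, at 9.21. Pcbd1 stood at 10.89 on KL null replicate 1, against 10.77 to 10.78 on the other KL null arrays. It was also marked on WT vehicle replicate 4, at 11.04 against 11.02 on the other vehicle arrays. That gap is near the rounding of the values and does not mark an outlying array.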

How the results depend on the processing

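The 9 genes in 3 comparisons gave 27 differences, each recomputed under 23 alternatives. Of these 621 values 565 kept direction and side of the threshold, 37 lost a call, 7 gained one and 12 changed sign. The alternative without KL null replicates 1 and 2 was chosen after seeing the data. The 12 sign changes were in differences that had not been called. They were Cldn2 in KL null against WT vehicle (-0.02 with arrays centred on their medians, -0.01 without KL null replicates 1 and 2), Cldn14 in the same comparison (-0.05 without KL null replicates 1 and 2), Cldn19 after FGF23 (-0.02 with centring, 0 to 0.11 with an array left out, lowest without WT vehicle replicate 4), Cldn14 after FGF23 (-0.03 with spread as a covariate) and Trpm7 after FGF23 (0 without WT FGF23 replicates 1 and 2). In KL null against WT FGF23 they were Cldn14 (0.09 with spread as a covariate, 0.07 without WT FGF23 replicates 1 and 2, -0.20 to 0.02 with an array left out, at 0.01 without WT FGF23 replicate 2 and 0.02 without KL null replicate 4) and Cldn10 (-0.12 to 0.04 with an array left out, highest without WT FGF23 replicate 3). Outside the 9 they were Bsnd after FGF23 (0 without WT FGF23 replicates 1 and 2) and Fabp4 in KL null (0.06 without KL null replicates 1 and 2). The Trpm6 to Trpm7 ratio after FGF23 was -0.01 with a further quantile normalization and without WT vehicle replicate 2, and -0.09 to 0.16 with an array left out (-0.09 and -0.04 without WT FGF23 replicates 1 and 2 in turn); the Cldn16 to Cldn10 ratio was 0 with quantile normalization.

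The count of the 9 genes called in KL null against WT vehicle was 3; it was 4, with Cldn10, under array quality weights, trended moderation or without WT FGF23 replicates 1 and 2, 1 to 3 with an array left out and 1 without KL null replicates 1 and 2 (Cldn16). It was 1, Trpm6, without WT vehicle replicate 3 or KL null replicates 3 or 4. In KL null against WT FGF23 it was 4; it was 5, with Cnnm2 lower, under quantile normalization or array quality weights, 2 to 4 with an array left out, and 2, Trpm6 and Cldn16, with spread as a covariate, without WT FGF23 replicates 1 and 2 (both or singly) or without KL null replicate 3. After FGF23 it was 0 throughout. Over all genes, KL null against WT vehicle had 1598 calls (713 higher and 885 lower; 428 and 1239 with centring), 2852 with array quality weights and 828 to 1728 with an array left out. KL null against WT FGF23 had 2386, 944 without WT FGF23 replicates 1 and 2 and 1218 to 2794 with an array left out. FGF23 against vehicle had 17 (16 higher and 1 lower), 6 with centring (5 and 1), 10 with quantile normalization, 11 with spread as a covariate, 7 with only the 2 groups compared, 8 without WT FGF23 replicates 1 and 2, 9 without KL null replicates 1 and 2 and 4 to 14 with an array left out. The cause was not tested. With the replicate block it had 6; the numbers pair no samples by the labels, 7 of 12 same-numbered pairs correlated above 0.1 in their deviations (-0.216 to 0.259), and 3 of 12 arrays correlated best with their own number. With the block Cnnm2 had an adjusted p of 0.0707 in KL null against WT vehicle, and no other call of the 9 genes changed.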
